A study of Mus musculus with 15 samples.

Results

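The annotated long intergenic noncoding RNAs (lincRNAs) of the mouse liver were described across 5 groups of mice. Members were chosen by annotation and by level: a transcript was included when the authors' annotated table gave its gene type as lincRNA and its level was at least 0.5 FPKM in 2 or more of 10 long RNA libraries. The imprinted and nuclear body transcripts H19, Meg3, Rian, Mirg, Malat1 and Neat1 were set aside by symbol. The rule kept 323 transcripts of 262 genes, out of 419 lincRNA rows of 337 genes. Of the rows left out, 87 were under the level rule, 1 of which also had a symbol set aside, and 9 reached the level but were set aside by symbol. The annotated table held 1254 transcripts, and the 3 noncoding tables of the series together held 2030, of which 1493 reached the same level and were tested.

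LincRNAs are transcripts longer than the small regulatory RNAs, transcribed from their own loci between protein coding genes and mostly capped, spliced and polyadenylated. Known ones act in several ways: some guide or block chromatin proteins at nearby genes, some serve as precursors for snoRNAs or miRNAs, and a few carry short open reading frames that are translated. Many are expressed in few tissues and at low levels, and most mouse lincRNAs known only by a clone or predicted gene number have no described function.

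All animals were male wild-type C57BL/6 mice sampled at 40 weeks of age. Diethylnitrosamine (DEN, a carcinogen activated in hepatocytes) was given by injection at 2 weeks to the H1D, H2D and H3D mice, which then ate a high-fat diet (60% kcal fat). H1D mice were sons of F0 females, H2D mice of F1 females and H3D mice of F2 females, in a line whose females received that diet between 1 and 3 months of age and were mated with chow-fed males. NCD mice received DEN at the same age and stayed on chow, and Nor mice received PBS and stayed on chow; both were sons of F0 females, whose own diet the labels do not tie to these groups. Own diet and maternal line thus change together between NCD and the high-fat groups, and each generation is a single cohort. Each group gave 2 pools that combine the RNA of 4 to 8 animals, so the p-values measure the spread between pools and not between animals.

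After removal of ribosomal RNA, paired reads of 125 nt were made, and transcript levels were deposited as FPKM (fragments counted per kilobase, scaled to the mapped fragments of each library); the number of reads is not given in the sources used here. The depth behind each value is therefore unknown. Hepatocyte markers summed to 49442 to 89533 FPKM in the high-fat groups, 63424 to 67397 in NCD and 59614 to 66408 in Nor, so each library has the profile of liver. Several other marker sums moved with the groups. The 6 macrophage markers, each detected in every library, summed to 282 to 388 FPKM in the high-fat groups, 174 to 220 in NCD and 110 to 142 in Nor. The 6 tumour and fetal liver markers summed to 675 to 1168, 401 to 646 and 3.59 to 4.41 FPKM in the same order, with Spink1 listed at 0 in both Nor pools. In the pools of DEN mice most of that last sum was Spink1 and Tff3, while Afp was lower in H3D (16.9 and 7.39 FPKM) than in NCD (25.6 and 38.7 FPKM) and the Gpc3 pools of the high-fat groups (26.0 to 146 FPKM) spanned those of NCD (53.5 and 72.8 FPKM). The sum of 8 neutrophil markers was 19.3 to 918 FPKM in the high-fat groups, 11.2 to 29.9 in NCD and 3.68 to 12.9 in Nor. Summed cholangiocyte markers were 158 to 531 FPKM in the high-fat groups, 317 to 365 in NCD and 14.1 to 20.9 in Nor. That sum was mostly Spp1 and Tspan8. Krt7 had 0.0802 to 0.241 FPKM over all pools, and Krt19 was higher in the second Nor pool (0.304 FPKM) than in every H2D and H3D pool. Stellate cell markers summed to 24.8 to 42.7, 26.6 to 30.9 and 15.5 to 19 FPKM in the same order of groups. Erythroid markers summed to 577 to 3977, 633 to 758 and 510 to 550 FPKM. Lymphocyte markers summed to 4.10 to 8.39, 6.46 to 9.07 and 0.982 to 3.37 FPKM, so NCD was not below the high-fat groups. Endothelial sums overlapped over the groups, at 89.1 to 114, 93.8 to 101 and 77.9 to 95.4 FPKM. Not all members of these lists moved with their sum. Lrat had 7.13 and 8.95 FPKM in Nor, against 3.10 to 7.60 in the pools of DEN mice, and Alas2 had 69.0 and 59.9, against 12.7 to 43.7. In pooled tissue, fewer cells of a type and less RNA per cell cannot be told apart, and the part of these cells in the results below was not tested.

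The second Nor pool stood apart in a small set of transcripts. Over the 323 members the correlation of log2(FPKM + 0.5) between the pools was 0.860 in Nor, against 0.938 to 0.956 in the other groups. Gm26917 and Yam1 lay more than 5 times below the lowest of the other 9 libraries there, as did 8 protein coding genes of at least 5 FPKM elsewhere, among them Hsp90aa1 (0.933 FPKM, against 107 to 244 elsewhere) and the ribosomal protein gene Rpl12 (2.18 FPKM, against 185 to 276 elsewhere). The 8 coding genes included several named Rrp (ribosomal RNA processing). This was followed over that family after the values were seen: 8 of 8 Rrp genes were lowest in this pool, 7 of them more than 5 times below the lowest other library. The first Nor pool had 7 coding genes as low relative to the rest and the other 8 libraries had 0. Among the 7 were Arntl (0.204 FPKM, against 6.71 to 11.9 elsewhere) and Igfbp1 (20.5 FPKM, against 247 to 1012 elsewhere). Neither Nor pool is thus taken as the sound one. The cause was not tested. Main counts of calls that involve Nor are given with and without its pools, except that H3D against Nor lacks the count without the first.

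Promoter sequences help to identify some of the members described below. For 15 of the 33 genes called over the groups (defined below), RefSeq supplied a promoter window of 250 bases before to 50 after the annotated start. The windows of 9030616G12Rik (chr10:128970947-128971246, plus strand), 1810008I18Rik (chr7:65802787-65803086, plus strand) and C730036E19Rik (chr1:151137784-151138083, plus strand) are shown on the GRCm38.p6 build, because the first pair were lower in H3D than in NCD and the last was lower in every pool of DEN mice than in Nor. Capitals mark matches to the motifs listed after them.
9030616G12Rik: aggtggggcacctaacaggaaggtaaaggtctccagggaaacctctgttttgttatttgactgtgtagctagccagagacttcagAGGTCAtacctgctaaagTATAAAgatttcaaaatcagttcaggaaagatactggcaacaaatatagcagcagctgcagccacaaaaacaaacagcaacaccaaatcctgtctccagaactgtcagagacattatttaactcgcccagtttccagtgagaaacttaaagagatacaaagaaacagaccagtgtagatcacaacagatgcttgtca
1810008I18Rik: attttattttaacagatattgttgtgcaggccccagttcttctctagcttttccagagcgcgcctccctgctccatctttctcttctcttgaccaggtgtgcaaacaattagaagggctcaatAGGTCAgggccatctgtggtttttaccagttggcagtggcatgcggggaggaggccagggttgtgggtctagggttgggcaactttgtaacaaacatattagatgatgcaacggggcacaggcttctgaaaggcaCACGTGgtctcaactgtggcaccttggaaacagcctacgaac
C730036E19Rik: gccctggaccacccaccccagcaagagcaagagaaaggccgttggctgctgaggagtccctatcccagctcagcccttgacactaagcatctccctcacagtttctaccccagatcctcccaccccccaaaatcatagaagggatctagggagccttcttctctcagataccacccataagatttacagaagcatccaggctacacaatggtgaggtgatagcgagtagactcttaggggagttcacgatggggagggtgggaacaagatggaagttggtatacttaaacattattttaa

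A set of 10 motifs was searched on both strands in these windows and in all 27025 RefSeq promoters. Core promoter motifs were the TATA box, searched as TATAAA, the CCAAT box, searched under that spelling, and the Sp1 motif called GC box, searched as GGGCGG. Motifs of transcription factor families were the E-box (CACGTG), the AP-1 motif (TGANTCA), the STAT motif (TTCNNNGAA), the FOX motif (TGTTTAC), the nuclear receptor half-site (AGGTCA), the cyclic AMP response element (TGACGTCA) and the palindrome of the C/EBP factors (TTGCGCAA). No motif contains another. The nuclear receptor half-site stands in the windows of both 9030616G12Rik and 1810008I18Rik; it was present in 4 of the 15 windows and in 4335 of all promoters. 9030616G12Rik also held a TATA box (1 of 15 windows, 14.2% of promoters), which lies further from the start than that element usually does, and 1810008I18Rik an E-box (3 of 15 windows, 7.24% of promoters). The CCAAT box was present in 5 windows (37.9% of promoters), the GC box in 3 (35.9%) and the AP-1 motif in 2 (7.93%). In the window of C730036E19Rik none of these strings was found. A match is a string of letters and not a shown binding site.

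A second set of sequences belongs to miRNAs that share a locus with members. They were read in the small RNA libraries, and their seeds (bases 2 to 8) are in capitals. miR-17-5p and miR-20a-5p share a seed, as do miR-19a-3p and miR-19b-3p.
miR-17-5p: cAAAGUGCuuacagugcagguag
miR-20a-5p: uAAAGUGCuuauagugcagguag
miR-19a-3p: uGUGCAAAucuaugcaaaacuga
miR-19b-3p: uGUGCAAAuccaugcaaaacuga
miR-92a-3p: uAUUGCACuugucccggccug
miR-142a-5p: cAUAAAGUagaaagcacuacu
miR-142a-3p: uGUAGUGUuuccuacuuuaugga

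Most lincRNAs of these livers were rare. The mean over the 10 libraries had a median of 0.893 FPKM and quartiles of 0.475 and 2.31 FPKM, with 146 transcripts at 1 FPKM or more, 28 at 10 or more and 4 at 100 or more. Only 136 of the 323 reached 0.5 FPKM in every library, and 39 did so in exactly 2. For 11 of these 39 the 2 libraries were the pools of a single group, which was Nor for 6, H1D for 3 and H2D for 2; such a transcript had to differ between groups to be included. Closest to the threshold, the second highest library stood at 0.501 FPKM for Gm26751 and 0.502 for Gm26724 just inside, and at 0.499 for A830052D11Rik and 0.494 for Gm26742 just outside. Of the 262 genes, 222 had 1 transcript and 40 had 2 or more, with the most (6) for 2310001H17Rik.

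**Figure D1:**
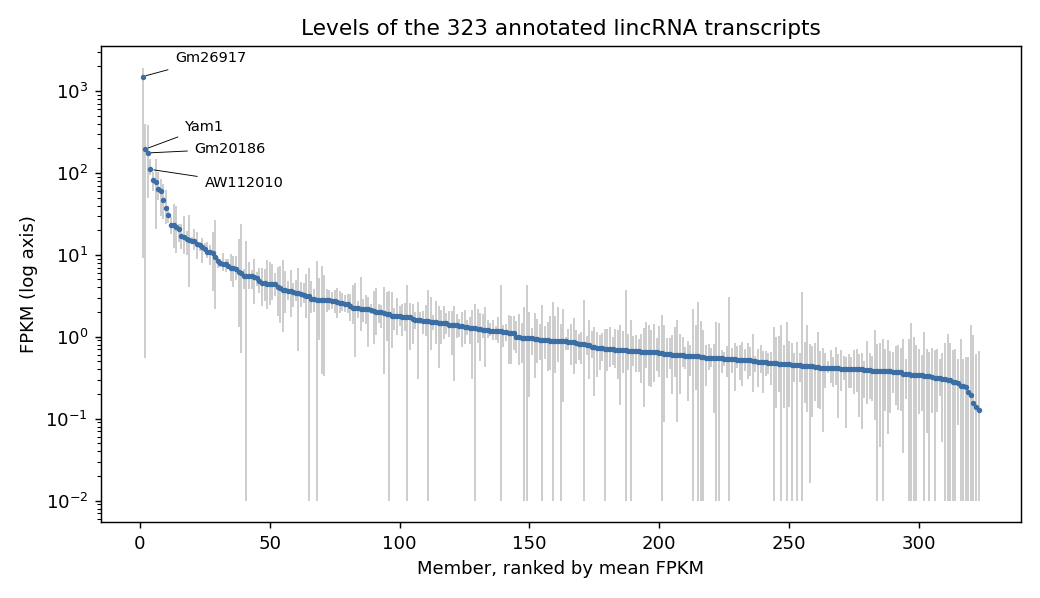
FPKM (log axis) of the 323 lincRNA transcripts in order of their mean over the 10 libraries. Points are means and grey lines run from the lowest to the highest library, drawn no lower than the lowest labelled tick; 4 transcripts have a mean of at least 100 FPKM, and the line of the most abundant, Gm26917, spans 9.03 to 1931 FPKM.

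The most abundant member was Gm26917, a locus that carries sequence of the ribosomal RNA repeat, so that reads from residual ribosomal RNA can be assigned to it. It measured 1413 and 1520 FPKM in the H1D pools, 1931 and 1844 in H2D, 1883 and 1874 in H3D, 1266 and 1526 in NCD, and 1709 and 9.03 in Nor. It made up 43.7% to 57.9% of the members' summed FPKM in 9 libraries and 0.662% in the second Nor pool. Yam1, described in mouse muscle differentiation, followed with 176 and 250 FPKM in H1D, 376 and 233 in H2D, 393 and 58.6 in H3D, 39.7 and 83.1 in NCD, and 340 and 0.543 in Nor. The Nor pools of both, and the H3D pools of Yam1, lay more than 5-fold apart, and neither was called over the 5 groups (limma adjusted p = 0.465 and 0.629).

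Next in level came transcripts whose pools lay close together. AW112010, an interferon-responsive transcript of mouse immune cells that is also translated, measured 109 and 149 FPKM in H1D, 107 and 106 in H2D, 94.7 and 95.5 in H3D, 127 and 107 in NCD, and 94.8 and 115 in Nor, and its groups overlapped (adjusted p = 0.531). Gm26669 measured 78.5 to 87.0 FPKM in the 6 high-fat pools, 79.3 and 84.2 in NCD, and 60.8 and 103 in Nor (adjusted p = 0.997). 1810058I24Rik, which RefSeq lists as protein coding and which encodes a small mitochondrial protein, measured 27.7 to 50.8 FPKM in the high-fat pools, 50.0 and 42.7 in NCD, and 57.7 and 73.6 in Nor; all pools of DEN mice lay below Nor, but it was not called (adjusted p = 0.189). The other members among the 10 with the highest means were Gm20186, Gm26809, 1810008I18Rik, Gm12840 and Snhg6, and the first 4 of these were called over the groups.

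Over the 5 groups, 33 members of 33 genes differed (10.2% of 323; moderated F test in limma on log2(FPKM + 0.5), Benjamini-Hochberg adjusted p below 0.05). Among all 1493 noncoding transcripts tested, members included, the share was 13.9%, and the difference between the shares was not tested. In 14 of the 33 every pool of DEN mice lay above both Nor pools, in 12 every such pool lay below them, and in 7 the ranges overlapped. Over all 323 members, 10.5% lay above and 16.4% below in the same way, against 12.2% and 16.7% of all transcripts tested. By group mean, the 33 were highest in Nor (15), H1D (6), H3D (6), NCD (4) or H2D (2), and lowest in Nor (14), H3D (14), H1D (3) or H2D (2). Without 1 pool the count was 21 or 28 (H1D pool 1 or 2), 19 or 20 (H2D), 16 or 17 (H3D), 20 (either NCD pool) and 18 (either Nor pool), where the remaining pool of that group is assumed to vary like the others. Of the 33, 16 stayed called without the first Nor pool, 17 without the second and 13 in both of these fits. In all 10 fits without 1 pool 7 members were called: Gm26809, Gm26778, 2310034O05Rik, AI662270, Gm13021, Gm13203 and Gm28050.

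**Figure D2:**
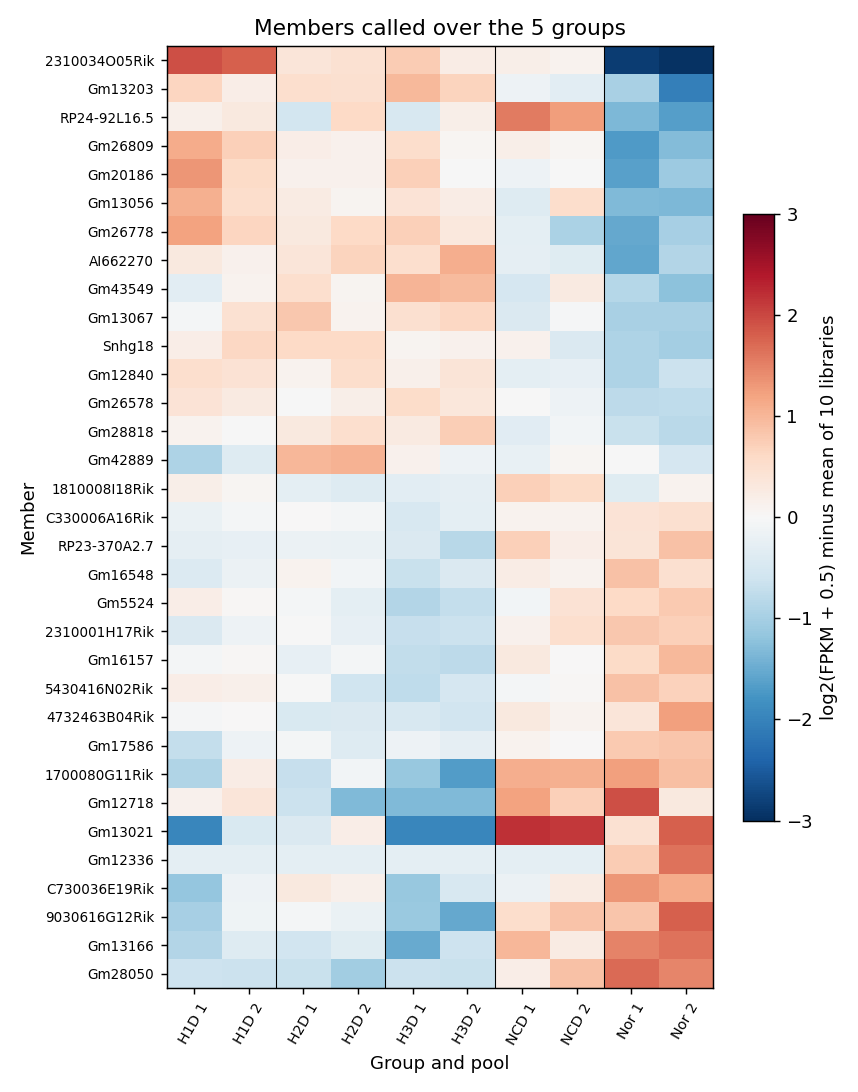
Level of the 33 members called over the 5 groups, as log2(FPKM + 0.5) minus the mean of the 10 libraries (red above, blue below), with pools in columns. Rows run from those higher in DEN mice to those higher in Nor, and 2310034O05Rik, at the top, is lowest in both Nor pools and highest in both H1D pools.

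Among members that were higher in every pool of DEN mice than in Nor, 2310034O05Rik stood out by its level in Nor. It had 14.6 and 13.1 FPKM in H1D, 4.57 and 4.91 in H2D, 6.17 and 4.11 in H3D, 3.92 and 3.73 in NCD, and 0.0423 and 0 in Nor (adjusted p = 7.52e-05 over the groups). Gm26809 measured 147 and 111 FPKM in H1D, 78.0 and 73.6 in H2D, 98.3 and 70.3 in H3D, 76.1 and 70.4 in NCD, and 20.6 and 27.3 in Nor (adjusted p = 0.00447). In both, the H1D pools were the highest of all libraries and the H2D, H3D and NCD pools lay together between H1D and Nor. Gm20186 had 381 and 228 FPKM in H1D, 166 and 167 in H2D, 250 and 152 in H3D, 137 and 152 in NCD, and 49.0 and 71.2 in Nor (adjusted p = 0.0158), so that one H3D pool lay above an H1D pool. Gm12840 measured 61.2 to 83.1 FPKM in the high-fat pools, 46.5 and 48.4 in NCD, and 29.9 and 36.6 in Nor (adjusted p = 0.0167), so that the 3 kinds of group did not overlap. Without the first Nor pool the adjusted p over the groups was 0.0738 for Gm20186 and 0.0593 for Gm12840, and without the second it was 0.0405 and 0.0384.

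Further members of this set differed in where NCD stood; Gm26778 and Gm43549 were chosen after their values were seen. Gm26778 measured 30.4 and 20.3 FPKM in H1D, 15.8 and 19.7 in H2D, 21.3 and 16.2 in H3D, 10.3 and 6.32 in NCD, and 4.07 and 6.12 in Nor (adjusted p = 0.0130). AI662270, a member of the immune list, had 3.75 and 3.32 FPKM in H1D, 4.01 and 5.05 in H2D, 4.45 and 6.91 in H3D, 2.39 and 2.22 in NCD, and 0.675 and 1.39 in Nor (adjusted p = 0.0146). In both transcripts the NCD pools lay below every high-fat pool. The summed macrophage markers given above also had both NCD pools below every high-fat pool, though Clec4f by itself did not. Neither did the summed lymphocyte or neutrophil markers. The part of macrophages in this was not tested. A second transcript of AI662270 had 0.00144 to 2.67 FPKM in the high-fat pools, 1.22 and 0.405 in NCD, and 0.864 and 0.455 in Nor, and was not called (adjusted p = 0.414). Gm43549 was highest in H3D, with 19.2 and 18.3 FPKM against 7.32 to 13.4 in the H1D and H2D pools, 6.36 and 11.2 in NCD, and 4.87 and 3.64 in Nor (adjusted p = 0.0221), and its NCD pools overlapped those of H1D and H2D. Its adjusted p was 0.0543 without the first Nor pool and 0.0856 without the second.

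The members that were lower in every pool of DEN mice than in Nor included a transcript with a known role in liver. C730036E19Rik is listed in RefSeq under the synonym lncLSTR, a liver-enriched lincRNA that regulates triglyceride clearance in mice, and lies on chromosome 1 at 151138034 to 151144095 (GRCm38.p6). It had 1.14 and 2.81 FPKM in H1D, 4.00 and 3.61 in H2D, 1.18 and 2.14 in H3D, 2.75 and 3.83 in NCD, and 8.65 and 7.43 in Nor (adjusted p = 0.0310 over the groups, 0.118 without the first Nor pool and 0.0976 without the second). It was chosen after its values were seen, and its change in NCD against Nor alone was -1.18 ± 0.36 on the log2 scale (adjusted p = 0.144). Gm12336, also chosen after its values were seen, was listed at 0 in every pool of DEN mice and at 0.539 and 1.41 FPKM in Nor. It was included only through those Nor pools, so a difference between groups was built into its inclusion. Its place among the 33 called members, and among the 12 below Nor, therefore does not test a change.

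NCD against Nor asks which lincRNAs differed after DEN in chow-fed mice. Of the members 3 rose and 0 fell (0.929%), against 1.74% called among all transcripts tested (1.41% higher, 0.335% lower), and 55 members had an unadjusted p below 0.05 (17%, against 18.6% of all tested). RP24-92L16.5 was highest in NCD of all groups, with 7.33 and 5.92 FPKM there, against 0.547 and 0.350 in Nor, and 1.32 to 3.57 FPKM in the high-fat pools. Its log2 change in NCD against Nor was 2.91 ± 0.38 (SE, adjusted p = 0.0106). 2310034O05Rik averaged 3.82 ± 0.133 FPKM in NCD and 0.0212 ± 0.0299 FPKM in Nor (SD, n = 2 pools each), a change of 3.05 ± 0.21 on the log2(FPKM + 0.5) scale (adjusted p = 0.000201). Gm26809 averaged 73.2 ± 3.99 FPKM in NCD and 23.9 ± 4.76 FPKM in Nor, a log2 change of 1.61 ± 0.23 (adjusted p = 0.0157). The pools of both groups did not overlap in any of the 3. With libraries scaled to equal mRNA sums, 26 of all transcripts tested were called (25 higher, 1 lower), beside the member count given below. The call of Gm26809 was lost without the first Nor pool (adjusted p = 0.0547) and without the first or second NCD pool (0.135 and 0.0772), and that of RP24-92L16.5 without the first NCD pool (0.116), while 2310034O05Rik was called in all 10 fits without 1 pool. The count was 5 without either Nor pool (4 higher, 1 lower), 1 or 2 without the first or second NCD pool, and 5, all higher, when libraries were scaled to equal mRNA sums.

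H1D, H2D and H3D were each set against NCD, which gives own high-fat diet and ancestry together, on a background of DEN. In H1D against NCD a single member was called, and it rose (0.310% of members, against 0.067% of all transcripts tested, which is this same transcript); 27 members had an unadjusted p below 0.05 (8.36%, against 11.5% of all tested). It was 2310034O05Rik, at 13.8 ± 1.05 FPKM in H1D and 3.82 ± 0.133 FPKM in NCD (SD, n = 2 pools each), a log2 change of 1.73 ± 0.21 (adjusted p = 0.0459). The call was lost in 8 of 10 fits without 1 pool, holding without either H3D pool. In H2D against NCD, limma called 0 members (0.067% of all transcripts tested), with 37 at an unadjusted p below 0.05 (11.5%, against 13.1% of all tested). The median log2 change of the members was 0.01 in H1D and 0.03 in H2D, against -0.01 and 0.00 over all transcripts tested.

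In H3D against NCD 11 members fell and 0 rose (3.41% of members), against 6.23% called among all transcripts tested (4.89% lower and 1.34% higher), and 50 had an unadjusted p below 0.05 (15.5%, against 21.2% of all tested). The count was 0 without either NCD pool or either H3D pool, 4 without either H2D pool, 7 without either H1D pool and 16 (3 higher, 13 lower) without either Nor pool. With libraries scaled to equal mRNA sums, which shifted the median of all transcripts tested by 0.12 on the log2 scale, 7 members rose and 5 fell. Among all transcripts tested, 37 rose and 53 fell on that scaling. Of the 11, the 5 that stayed called were Gm13021, 1700080G11Rik, Gm12718, 9030616G12Rik and Gm13166, and the other 6 (1810008I18Rik, 2310001H17Rik, Gm16157, Gm28050, Gm5524 and RP23-370A2.7) had an adjusted p of 0.0527 to 0.0731 on that scaling.

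Of the 11, 9030616G12Rik lies on chromosome 10 at 128971197 to 128978113 (GRCm38.p6). It had 3.14 and 2.19 FPKM in H3D, against 10.8 and 13.6 in NCD. The H1D pools had 3.42 and 6.64 FPKM, the H2D pools 6.97 and 6.34 and the Nor pools 13.5 and 26.8. Its log2 change in H3D against NCD was -2.01 ± 0.38 (adjusted p = 0.0242). 1700080G11Rik, on chromosome 4, had 0.703 and 0.328 FPKM in H3D, against 5.09 and 5.08 in NCD, with 0.911 to 2.59 in H1D and H2D and 5.68 and 4.44 in Nor (log2 change -2.48 ± 0.39, adjusted p = 0.0175). For both, the NCD and Nor pools overlapped and every high-fat pool lay below them. For Gm13166 they did not overlap, with 1.33 and 2.88 FPKM in H3D, 9.99 and 5.68 in NCD, and 14.3 and 15.7 in Nor (log2 change in H3D against NCD -1.69 ± 0.35, adjusted p = 0.0350).

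For Gm13021 and Gm12718 both H3D pools were listed at 0, so that no fold is given. Gm13021 was listed at 0 and 0.924 FPKM in the H1D pools and at 0.938 and 1.72 in H2D, while NCD had 8.34 and 8.00 and Nor 2.18 and 6.19 (adjusted p = 0.0103 for H3D against NCD). Gm12718 had 0.874 and 1.12 FPKM in the H1D pools and 0.306 and 1.3e-05 in H2D, while NCD had 2.39 and 1.58 and Nor 4.32 and 1.06 (adjusted p = 0.0356). NCD was the highest group for Gm13021, and the Nor pools of both were far apart. Gm28050 was near 0 in each high-fat group, at 0 to 0.170 FPKM in the 6 pools, against 0.676 and 1.40 in NCD and 2.84 and 2.35 in Nor (log2 change in H3D against NCD -1.18 ± 0.27, adjusted p = 0.0414). It was included only through the NCD and Nor pools, so a difference from the high-fat groups was built into its inclusion. Its calls over the groups and in comparisons with a high-fat group are therefore no separate support for a change.

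The remaining members lower in H3D changed less. RP23-370A2.7 averaged 0.910 ± 0.261 FPKM in H3D and 2.50 ± 0.745 FPKM in NCD (log2 change -1.08 ± 0.26, adjusted p = 0.0474). For 2310001H17Rik the most abundant of its 6 transcripts averaged 2.00 ± 0.0684 FPKM in H3D and 4.48 ± 0.916 FPKM in NCD (log2 change -0.98 ± 0.20, adjusted p = 0.0331), while its other 5 transcripts were not called over the groups (adjusted p = 0.0813 to 0.878). 1810008I18Rik, on chromosome 7 at 65803037 to 65806233, was highest in NCD: its pools had 49.6 and 51.4 FPKM in H3D against 102 and 91.3 in NCD, beside 69.4 and 64.0 (H1D), 50.0 and 47.2 (H2D), and 48.0 and 65.9 (Nor) (log2 change in H3D against NCD -0.92 ± 0.18, adjusted p = 0.0283). Its H2D, H3D and Nor pools overlapped, and NCD stood above all other pools. Gm16157 and Gm5524, outside the rule for named transcripts, averaged 2.24 ± 0.0753 and 2.69 ± 0.245 FPKM in H3D, against 4.68 ± 0.675 and 5.83 ± 1.58 FPKM in NCD (SD, n = 2 pools each; adjusted p = 0.0387 and 0.0405).

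**Figure D3:**
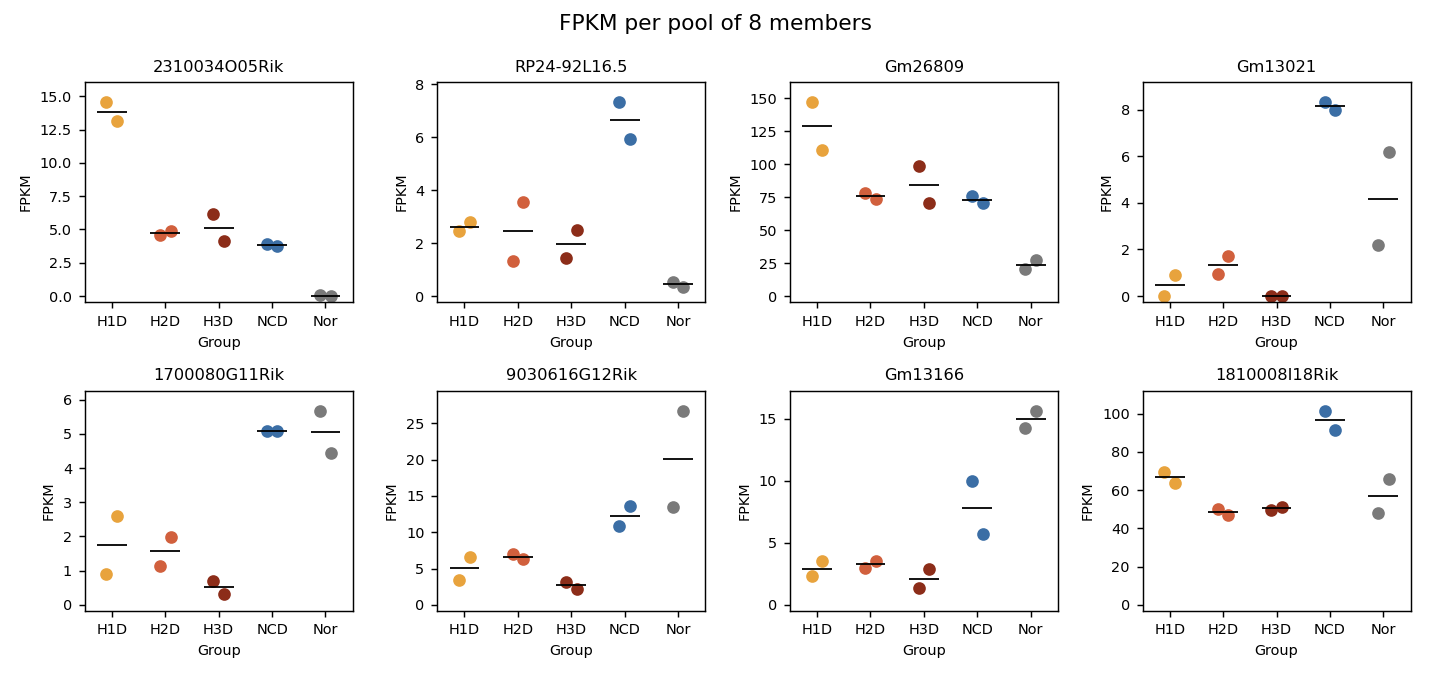
FPKM in each pool (points) and group mean (bars) for 8 members called in a comparison, with the groups from H1D to Nor along the axis. 2310034O05Rik and Gm26809 are lowest in both Nor pools, RP24-92L16.5, Gm13021 and 1810008I18Rik are highest in NCD, and 1700080G11Rik, 9030616G12Rik and Gm13166 are lower in every high-fat pool than in NCD.

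H1D, H2D and H3D share DEN and their own diet and differ in maternal generation and cohort. A moderated F test among them called 0 members, with 30 at an unadjusted p below 0.05 (9.29%, against 11.9% of all tested), and 0 of all 1493 transcripts tested. Each pairwise contrast among them also called 0 members, with 23 to 27 at an unadjusted p below 0.05 (7.12% to 8.36%, against 8.57% to 10.4% of all tested). 2310034O05Rik, the member that rose in H1D against NCD, had an adjusted p of 0.0975 in this test, and its H1D pools (14.6 and 13.1 FPKM) lay above the 4 H2D and H3D pools (4.11 to 6.17 FPKM). Gm42889, chosen after its values were seen, had its highest pools in H2D, with 1.42 and 1.47 FPKM in H2D, against 0 and 0.228 in H1D and 0.542 and 0.362 in H3D (adjusted p = 0.133 in this test, 0.0310 over the 5 groups).

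The comparisons of each high-fat group with Nor, added after the data were seen, give DEN, own diet and ancestry together. In H1D 21 members rose and 18 fell (12.1% of members), against 15.9% of all transcripts tested (7.3% higher, 8.57% lower). In H2D 20 rose and 16 fell (11.1%), against 12% of all tested (5.56% higher, 6.43% lower). In H3D 27 rose and 39 fell (20.4%), against 25.1% of all tested (9.51% higher, 15.6% lower). With equal mRNA sums, which shifted the median of all transcripts tested by 0.19 to 0.24 on the log2 scale, H1D had 26 higher and 8 lower, H2D 27 higher and 4 lower and H3D 42 higher and 19 lower, so the balance of directions depends on the scaling. 2310034O05Rik had the smallest adjusted p in all 3 comparisons (8.6e-06 in H1D, 0.000101 in H2D and 6.26e-05 in H3D). Gm28050 was included only through the NCD and Nor pools, so a difference from the high-fat groups was built into its inclusion. It fell in all 3 comparisons, by 2.21 ± 0.27 in H1D, 2.43 ± 0.27 in H2D and 2.23 ± 0.27 in H3D on the log2 scale (adjusted p = 0.00284, 0.003 and 0.00128), and Gm13166 by 2.20 ± 0.35, 2.04 ± 0.35 and 2.63 ± 0.35 (adjusted p = 0.00756, 0.0119 and 0.00184). Of these calls, that of Gm13166 in H2D was lost without the second Nor pool (adjusted p = 0.0512), and the others held without either Nor pool. These comparisons share the Nor pools, and leaving out the first H1D pool left 5 calls in H1D, leaving out the first or second H2D pool 7 or 2 in H2D, leaving out the first or second Nor pool 16 or 13 in H2D and 28 or 23 in H1D, and leaving out the first or second H3D pool 36 or 39 in H3D. Without the second Nor pool 38 were called in H3D, and without the second H1D pool 24 in H1D.

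**Figure D4:**
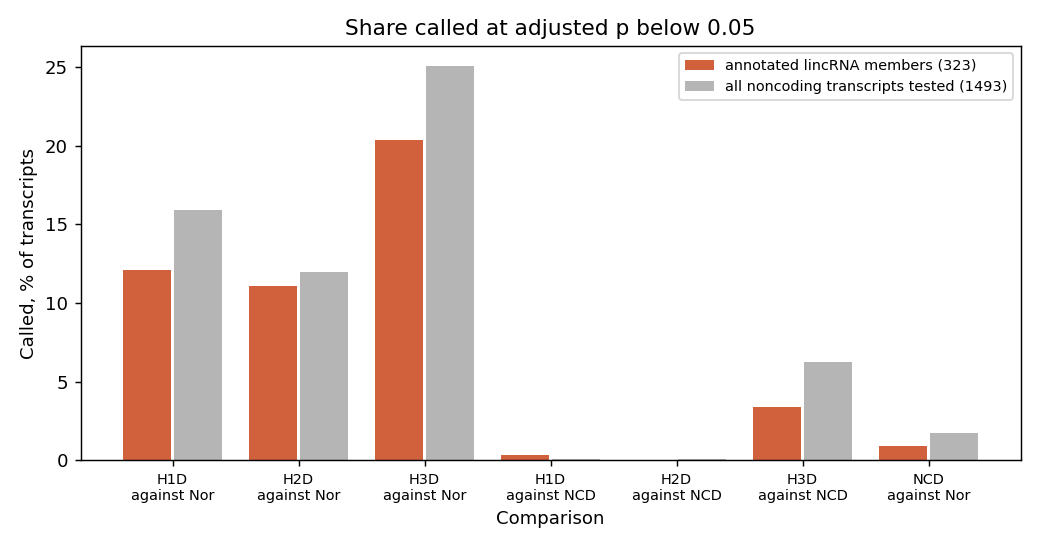
Share of the 323 lincRNA members (orange) and of all 1493 noncoding transcripts tested (grey) called at adjusted p below 0.05 in each comparison. The comparisons share the NCD or Nor pools, and both bars are tallest in H3D against Nor (20.4% and 25.1%).

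Members with a known or host function were followed as lists. Of 22 snoRNA host genes on the list, 4 were members (Snhg6, Snhg12, Snhg18 and Snhg20, with 11 transcripts), and 1 transcript was called over the groups, a share near the 13.9% called among all transcripts tested. snoRNA hosts carry the guides of ribosomal RNA modification in their introns. The called transcript belonged to Snhg18 and had 1.61 and 2.35 FPKM in H1D, 2.28 and 2.28 in H2D, 1.46 and 1.52 in H3D, 1.50 and 0.868 in NCD, and 0.468 and 0.415 in Nor (adjusted p = 0.0185, 0.0681 without the first Nor pool and 0.0826 without the second). The most abundant transcript of Snhg6 measured 32.2 to 62.4 FPKM in the high-fat pools, 33.5 and 37.3 in NCD, and 24.0 and 25.8 in Nor, so every pool of DEN mice was above Nor, but it was not called (adjusted p = 0.145). A second Snhg6 transcript (7.61 to 13.1 FPKM over the 10 libraries) and Snhg12 (7.98 to 15.9 FPKM) had overlapping groups (adjusted p = 0.863 and 0.797). For Snhg20 the more abundant transcript had 10.3 to 29.5 FPKM over the libraries (adjusted p = 0.620), and the other lay below Nor in every pool of DEN mice, at 3.38 to 5.29 FPKM against 6.99 and 6.25 (adjusted p = 0.0877). The median log2 change of the 11 transcripts was 0.18 in NCD against Nor and -0.03, 0.18 and 0.27 in H1D, H2D and H3D against NCD.

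The list for p53, growth and genome stability held Lincpint, which p53 induces, and Pvt1, the neighbour of Myc. Of their 8 transcripts 0 were called over the groups, in NCD against Nor, or in H1D, H2D or H3D against NCD. Calls of the lists in H1D, H2D and H3D against Nor were not counted. With 13.9% of all transcripts tested called over the groups, 0 calls in this list and in the short lists that follow set none of them apart. The most abundant transcript of Lincpint measured 2.58 to 4.55 FPKM in the high-fat pools, 3.35 and 2.32 in NCD, and 3.85 and 3.33 in Nor (adjusted p = 0.641). A Pvt1 transcript had 0.421 to 0.895 FPKM in the high-fat pools, 0.577 and 0.612 in NCD, and 0.164 and 0.295 in Nor, with every pool of DEN mice above Nor but no call (adjusted p = 0.105). Of the X inactivation list, Jpx and Ftx, both activators of Xist, had 3 transcripts and 0 calls, at 0 to 0.819 FPKM over the 10 libraries. The liver metabolism list was represented by Platr4 (2 transcripts, 0 called): its more abundant transcript had 0.606 to 0.947 FPKM in the high-fat pools, 0.371 and 0.399 in NCD, and 0.612 and 0.710 in Nor, lowest in NCD (adjusted p = 0.165). Of the immune list AI662270 and AW112010 were members, with 3 transcripts and the 1 call described above. The repeat list held Gm26917 and Gm26870, the second at 0.159 to 2.17 FPKM, with 0 calls.

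A further 3 members are annotated as host transcripts of miRNAs. Mir17hg, of the miR-17 to miR-92 cluster that is induced by Myc, had 0.672 and 0.629 FPKM in H1D, 0.945 and 1.08 in H2D, 0.793 and 0.940 in H3D, 1.05 and 1.17 in NCD, and 0.537 and 1.35 in Nor. Mir143hg, of the smooth muscle and stromal miR-143 and miR-145, had 0.119 to 0.553 FPKM in the high-fat pools, 0.226 and 0.207 in NCD, and 0.701 and 0.426 in Nor. Mir142hg, of the blood cell miR-142, was listed at 0 in 6 of the 10 pools and at 1.10 to 2.21 FPKM in the other 4, at most 1 pool in any group. None of the 3 was called (adjusted p = 0.683, 0.178 and 0.871), and steady levels of a host transcript that is cut during processing need not follow those of its miRNAs.

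The mature miRNAs were counted in a single small RNA library per group, so they have no test and their 95% exact binomial (Clopper-Pearson) intervals cover counting error only. miR-142a-5p stood at 367 RPM (reads relative to all listed miRNA reads of a library) in H1D (interval 353 to 381), 420 in H2D (406 to 434), 342 in H3D (328 to 356), 372 in NCD (358 to 387) and 200.4 in Nor (190.8 to 210.4). Its partner strand miR-142a-3p stood at 111, 140.3, 148, 107 and 60.3 RPM in the same groups. Both strands were lowest in Nor, where the summed macrophage markers were lowest as well, though Clec4f among them was not. Of the cluster of Mir17hg, miR-92a-3p stood at 1007 RPM in H1D (984 to 1029), 1222 in H2D (1198 to 1246), 986 in H3D (963 to 1010), 1583 in NCD (1554 to 1613) and 1956 in Nor (1925 to 1986), an order that miR-17-5p did not share (139.98 RPM in H1D, 188 in H2D, 155 in H3D, 172 in NCD and 149.9 in Nor). miR-19a-3p and miR-19b-3p, which share a seed, stood at 19.97 and 188 RPM in NCD and at 8.27 and 124 RPM in Nor. The intervals of H2D (11.2 and 129 RPM) and H3D (11.4 and 125 RPM) overlapped those of Nor for both, and that of H1D overlapped that of NCD for miR-19a-3p (19.3 RPM) but not for miR-19b-3p (163 RPM). miR-19b-3p and miR-92a-3p are also made from a second locus on chromosome X, and on chromosome 14 RefSeq places miR-17 (115043684), miR-19a (115044048), miR-20a (115044183) and miR-19b-1 (115044358) ahead of the start of the Mir17hg gene (115044390 to 115046728), with miR-92a (115044476) inside it, so these reads are not a direct measure of the member. miR-143-3p stood at 10502 RPM in H1D, 8561 in H2D, 7591 in H3D, 10415 in NCD and 10730 in Nor.

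The position of members relative to coding genes was read from RefSeq (GRCm38.p6), which placed 153 of the 262 genes, 141 by symbol and 12 by a synonym. Of these, 40 overlapped a protein coding gene and 113 did not, with a median gap of 10631 bp where there was no overlap and 45 within 5000 bp. RefSeq called 141 of them lncRNA and 10 protein coding, among the last 1810058I24Rik and C330006A16Rik. Whether the counting used strand is not given in the sources used here, so for overlapping loci the reads of both genes cannot be told apart. Over 110 members whose nearest coding gene was also tested, the Spearman correlation of their log2 changes was 0.338 in H1D, 0.203 in H2D and 0.240 in H3D against NCD, and 0.169 in NCD against Nor. Without overlapping pairs (80 genes) it was 0.263, 0.275, 0.211 and 0.030 in the same order. These are descriptions across genes that share libraries, and genes are not independent replicates.

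Of the 33 called genes 22 were placed, and for 12 of these the nearest coding gene was tested; 4 of those neighbours (Mettl7b, Pcsk6, Nrg1 and Fn1) were called in NCD against Nor or in a comparison against NCD. The share of all 11557 mRNA genes called in any of these comparisons was not taken, so the count does not set the neighbours apart. Mettl7b, Pcsk6 and Nrg1 were chosen after their values were seen and are shown beside the member. For others the neighbour was not called, as for Gm13021 and Arhgef10l (log2 change of Arhgef10l in H3D against NCD 0.14, adjusted p = 0.740) and for Gm12718 and Oma1 (-0.30, adjusted p = 0.190). Mettl7b, a methyltransferase of lipid droplets and the endoplasmic reticulum, lies 10209 bp from 9030616G12Rik, and both fell in H3D. It measured 233 and 263 FPKM in H3D, 372 and 370 in NCD, and 453 and 488 in Nor, with 260 to 305 in H1D and H2D (log2 change in H3D against NCD -0.58 ± 0.10, adjusted p = 0.00841 among mRNA genes). Pcsk6, a secreted proprotein convertase 55903 bp from 1810008I18Rik, measured 15.0 and 17.5 FPKM in H3D, 24.3 and 29.6 in NCD, and 42.5 and 40.3 in Nor. It fell with 1810008I18Rik in H3D against NCD (-0.71 ± 0.16, adjusted p = 0.0236) but also fell in NCD against Nor (-0.62 ± 0.16, adjusted p = 0.0420), where 1810008I18Rik changed by 0.77 ± 0.18 (adjusted p = 0.0996). Gm26578, on chromosome 8 at 32009941 to 32018385, lies within the gene of Nrg1, a ligand of the ErbB receptors. Gm26578 had 0.689 and 0.585 FPKM in H1D, 0.382 and 0.507 in H2D, 0.810 and 0.641 in H3D, 0.386 and 0.306 in NCD, and 0.0165 and 0.0253 in Nor. It was included only through high-fat pools, so a difference between groups was built into its inclusion. Nrg1 had 1.30 to 3.81 FPKM in the high-fat pools, 1.69 and 2.58 in NCD, and 0.0389 and 0.0594 in Nor. Nrg1 rose in NCD against Nor (2.24 ± 0.29, adjusted p = 0.00397), and reads of unspliced Nrg1 cannot be told apart from those of Gm26578.

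**Figure D5:**
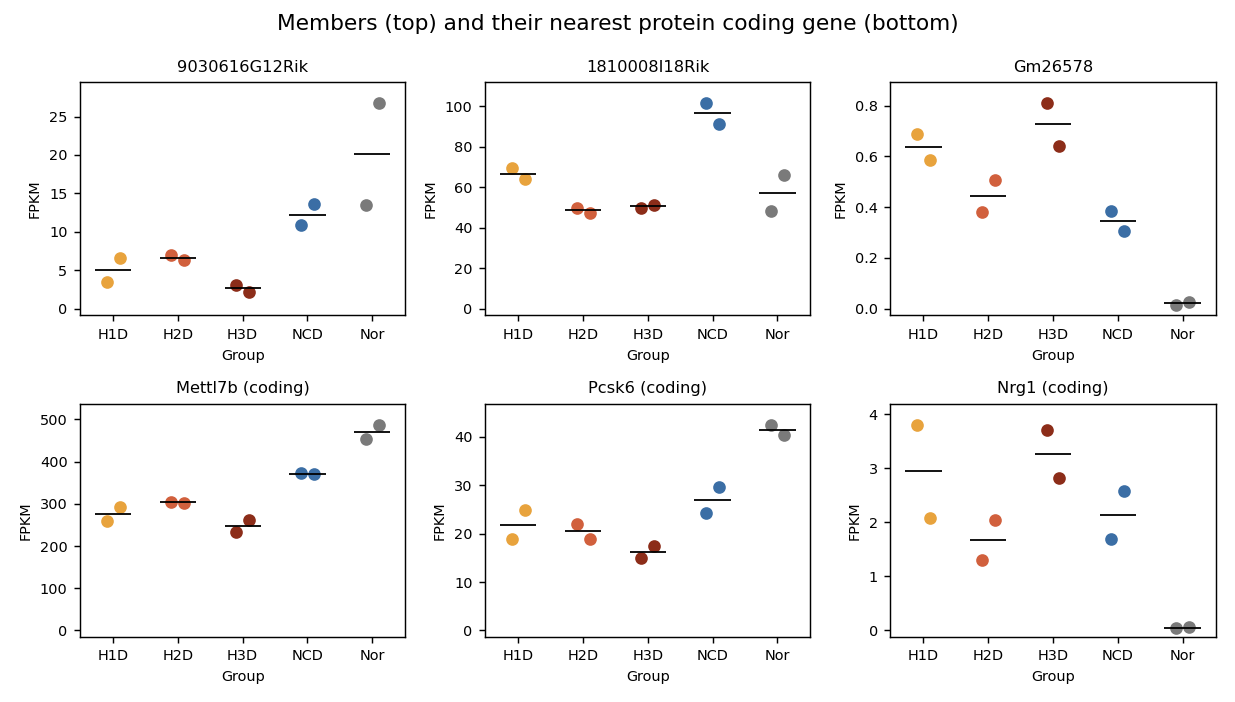
FPKM in each pool (points) and group mean (bars) of 3 members (top) and of the nearest or overlapping coding gene of each (bottom). 9030616G12Rik and Mettl7b are both lowest in H3D, 1810008I18Rik is highest in NCD while Pcsk6 is highest in Nor, and Gm26578 and Nrg1 are both below 0.1 FPKM in Nor.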

How the data were processed

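The authors deposited FPKM values per transcript in a table for mRNA and 3 noncoding tables (annotated, unannotated and of uncertain coding potential), and, per miRNA, read counts and RPM values (reads relative to all listed miRNA reads of a library; the column is headed as TPM). The submitters' processing notes name the GRCm38 build, TopHat2 2.0.9, Bowtie2 2.0.6, Cuffdiff and Cufflinks 2.1.1, SAMtools 0.1.18, Picard 1.96 and GATK, in no stated order or role. Estimated FPKM values divide shared reads among the transcripts of a gene, so the values of a single transcript are less certain than those of its gene. FPKM is relative to the mapped fragments of a library, so a large change in other RNA moves every value.

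The 3 noncoding tables were stacked, and transcripts with at least 0.5 FPKM in 2 or more libraries were tested on log2(FPKM + 0.5), on which changes of low transcripts are understated, with limma 3.58.1 in R 4.3.3 (variance trend, 1 coefficient per group, 5 residual degrees of freedom, two-sided tests). "Rose" and "fell" are used for Benjamini-Hochberg adjusted p below 0.05 over all 1493 transcripts. The fit was checked on simulated data. Neighbouring coding genes were tested likewise among 11557 mRNA genes with at least 1 FPKM in 2 libraries. Transcripts were named by rule: the 10 with the highest mean, up to 8 called rises and falls per comparison with a group mean of at least 1 FPKM and no overlap of pools, and up to 6 per list; others, including the neighbouring coding genes, were chosen after their values were seen. The members, lists and tests were chosen with earlier results of these data known, and the comparisons against Nor of H1D, H2D and H3D were added later. Small RNA libraries held 6864962 to 8316744 listed miRNA reads. Alternatives were other pseudocounts, filters, scalings and features in the fit, the pool number as a block, and leaving out each pool. Plots were made in Python 3.11.15 (matplotlib 3.10.9).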

Additional observations from a re-analysis of the deposited data

How the results depend on the processing

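With the mRNA genes in the fit (13050 features), 62 members were called over the 5 groups, 19 in NCD against Nor (9 higher, 10 lower), 2 in H1D, 2 in H2D and 26 in H3D against NCD (8 higher, 18 lower), 1 among H1D, H2D and H3D, and 71 in H1D and 64 in H2D against Nor. A pseudocount of 0.1 gave 7 calls in NCD against Nor and 0 in H1D against NCD, no filter gave 0 in H1D against NCD, and equal mRNA sums gave 5 in NCD against Nor. Testing only transcripts with a mean of at least 1 FPKM (587, of which 146 were members) gave 18 in H3D against NCD (4 higher, 14 lower) and 1 among H1D, H2D and H3D. With pool number as a replicate block, 25 members were called over the groups, 0 in H1D against NCD and 7 in H3D against NCD (1 higher, 6 lower); the labels do not tie the numbers to shared animals or batches, the correlation of deviations between same-numbered pools ran from -0.0679 to 0.0983, and the other counts moved by less than 1.5 times. Leaving out 1 pool gave 16 to 28 calls over the groups, 1 to 5 in NCD against Nor, 0 to 1 in H1D, 0 to 0 in H2D and 0 to 16 in H3D against NCD, 0 to 0 among H1D, H2D and H3D, and 5 to 34 in H1D, 2 to 35 in H2D and 36 to 58 in H3D against Nor. The cause of these differences was not tested. Leaving out a pool uses fewer samples, and the other filters and the mRNA genes change the set of features. The pseudocounts, scaling and block change neither. The 12 changes named by rule in NCD against Nor and in H1D and H3D against NCD kept their direction in these fits; other changes named in the text were not followed through them. The share called among all features was not taken in these fits, apart from the contrasts under equal mRNA sums. Their other counts therefore do not compare the members with the rest. The calls in H3D against NCD rest on all 4 pools of that contrast, and unknown depth and the pooling of animals limit every count.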
